A study of Mus musculus with 20 samples.

Results

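Roux-en-Y gastric bypass (RYGB) followed by a return to chow was compared with sham surgery followed by continued high-fat diet (HFD) in the livers of mice made obese by diet before surgery. The comparison took the 5 mice of the RYGB Chow group and the 5 of the Sham HFD group, 10 of the 20 mice of the series, and all genes with at least 2 CPM (counts of a gene scaled to the size of the library) in at least 3 mice. Of 54532 genes listed, 12289 met this limit. All groups were male C57BL/6 mice that had eaten HFD for 12 weeks before surgery, and liver was taken 8 weeks after it, with 1 library per mouse. The RYGB Chow mice had the bypass and then chow. The Sham HFD mice had a sham operation and then HFD, so that surgery and diet differ together between these groups and cannot be told apart by them alone. The study reports that Sham HFD mice were heavier than all other groups, which it calls lean. Body weight thus differs between the compared groups as well and cannot be told apart from surgery and diet. The Sham Chow group (5 mice, sham operation and then chow) and the RYGB HFD group (5 mice, bypass and then HFD) are given where they show what 1 of the 2 changes gave. Total counts of the 10 mice ran from 15874380 to 22537498. The group labels hold no targeted gene that could check them.

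RYGB makes a small stomach pouch and joins it to the jejunum, so that food bypasses most of the stomach and the duodenum. The duodenum is a main site of iron and zinc uptake. The obese liver stores triglyceride in lipid droplets, and its hepatocytes carry out bile acid synthesis, drug oxidation by cytochrome P450 enzymes and the secretion of most plasma proteins, while stellate cells are the main source of collagen when a liver scars. Hepcidin from hepatocytes lowers iron release into blood.

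In RYGB Chow livers, 71 of 81 cytosolic ribosomal protein genes and 19 of 38 genes of the Cyp2 and Cyp3 list were called higher than in Sham HFD livers. Collagen and other matrix genes were called lower in 19 of 26 cases, lipid droplet and triglyceride storage genes in 8 of 20 and PPARG and fatty acid uptake genes in 7 of 18. In edgeR's quasi-likelihood test with Benjamini-Hochberg adjustment over the 12289 genes, 1401 genes (11.4%) passed as higher and 1318 (10.7%) as lower in RYGB Chow at an adjusted p under 0.05. The same model called 1319 genes higher and 1337 lower in Sham Chow than in Sham HFD. In RYGB HFD over Sham HFD it called 1050 higher and 971 lower. These comparisons share the Sham HFD mice, so a difference given here need not be particular to surgery with chow. The median log2 fold change was 0.44 for the genes called higher, -0.58 for those called lower and 0.0071 over all tested genes. A change of at least 2-fold was fitted for 166 of the higher and 274 of the lower genes. All 5 RYGB Chow mice lay above all 5 Sham HFD mice for 946 genes (7.7%) and below them for 969 (7.89%). Scaling by library size alone, without TMM factors, moved the split to 766 higher and 1806 lower, since it shifted the median of all genes by -0.079 on the log2 scale. The share of higher genes among those called was then 29.8%, against 51.5% with TMM.

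**Figure D1:**
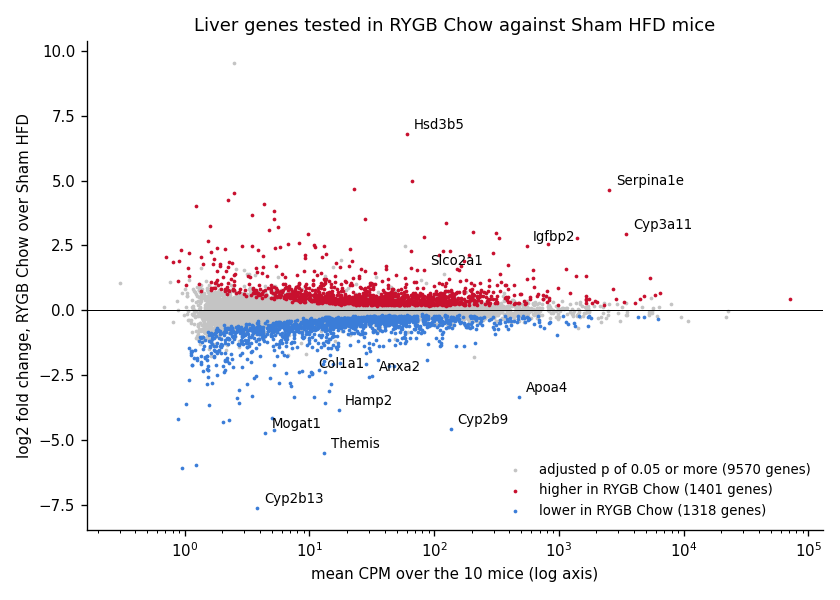
Each point is 1 of the 12289 tested genes, with its mean CPM over the 10 mice on a log axis and its log2 fold change in RYGB Chow over Sham HFD. The 1401 genes called higher are red, the 1318 called lower blue and the rest grey, and genes of both directions are found over most of the range of expression.

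The clearest single difference was *Slco2a1* (ENSMUSG00000032548, GRCm38 chromosome 9 from 102988712 to 103096002), which encodes a prostaglandin transporter. Its CPM was 43.4, 41.0, 40.3, 42.2 and 41.8 in the Sham HFD mice and 122, 136, 134, 117 and 104 in the RYGB Chow mice. The groups lay far apart and the Sham HFD mice were nearly equal. The log2 fold change was 1.56 ± 0.09 (SE; edgeR adjusted p = 1.04e-09).

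Other genes that rose with the smallest p-values included several of hepatocyte functions. *Cyp3a11*, a cytochrome P450 that oxidizes many drugs and steroids, had a CPM of 507, 1031, 883, 724 and 849 in Sham HFD and of 6610, 6691, 3962, 5494 and 7865 in RYGB Chow. Every RYGB Chow mouse exceeded every Sham HFD mouse by a wide margin, with a log2 fold change of 2.94 ± 0.21 (adjusted p = 1.93e-08). *Ces2a*, a carboxylesterase that hydrolyses esters of drugs and lipids, rose from 105 ± 10.8 to 488 ± 131 CPM (mean ± SD, n = 5 each). *C8a* and *C8b* encode chains of complement component C8, which takes part in the membrane attack complex. *C8b* rose from 73.7 ± 16.5 to 276 ± 48.9 CPM and *C8a* from 331 ± 70.9 to 771 ± 91.0 CPM. *Fetub*, a plasma protease inhibitor secreted by the liver, rose from 250 ± 15.7 to 496 ± 81.4 CPM. The tRNA methyltransferase gene *Trmt1* rose from 22.9 ± 1.54 to 37.1 ± 1.51 CPM, and *Gnl3*, which encodes the nucleolar protein nucleostemin, from 21.5 ± 2.12 to 43.2 ± 5.78 CPM. That the groups did not overlap was a condition for naming these genes and is no further result.

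*Igfbp2* encodes a binding protein of insulin-like growth factors. Its CPM was 196, 151, 151, 205 and 129 in Sham HFD and 675, 1262, 943, 677 and 1111 in RYGB Chow (log2 fold change 2.49 ± 0.24, edgeR adjusted p = 1.13e-06). The lowest RYGB Chow mouse was far above the highest Sham HFD mouse.

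**Figure D2:**
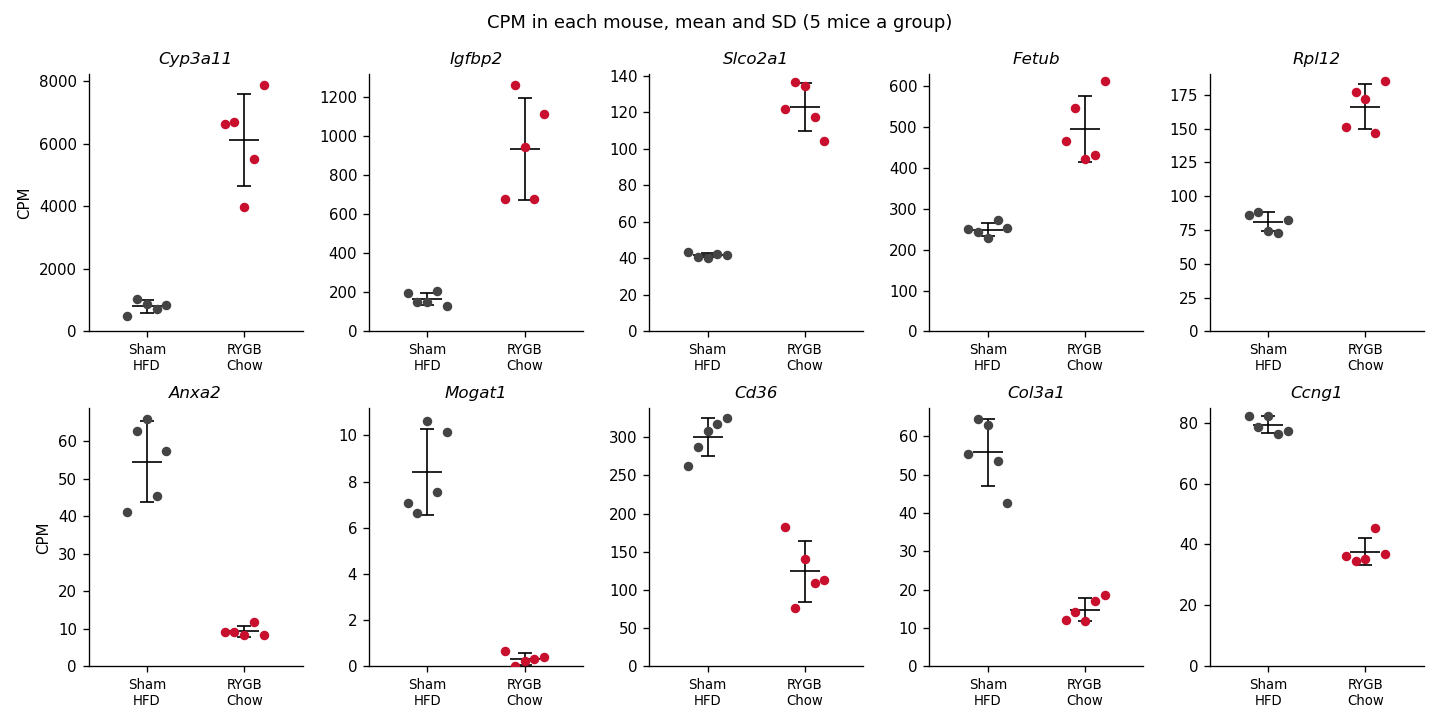
CPM of 10 genes in each of the 5 Sham HFD mice (grey) and 5 RYGB Chow mice (red), with the mean and SD as black lines and every axis starting at 0. The 5 genes in the top row were higher and the 5 in the bottom row lower in RYGB Chow, with no overlap between the groups in any of them. For the genes named by smallest p, this was a condition of the choice.

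The largest increase among genes with a mean of at least 5 CPM over the 20 mice was in *Hsd3b5*, and *Serpina1e*, *Mup19*, *Cyp4a12b* and *Adgrf1* were the other genes named for the size of their rise. *Serpina1e*, an alpha-1-antitrypsin gene, had 517, 116, 129, 91.2 and 133 CPM in Sham HFD and 3144, 6740, 2736, 6869 and 4847 CPM in RYGB Chow. *Hsd3b5*, a hydroxysteroid dehydrogenase gene known as higher in male than in female mouse liver, had at most 4.87 CPM in Sham HFD and between 59.4 and 213 CPM in RYGB Chow. In both genes Sham HFD replicate 1 was well above the other 4 mice of its group. It was still below every RYGB Chow mouse, as the rule for naming these genes required. *Mup19*, a major urinary protein gene, went from 4.10 ± 1.79 to 129 ± 122 CPM, with RYGB Chow mice spread between 10.3 and 275. Its log2 fold change was 5.00 ± 1.26 (edgeR adjusted p = 0.00734), and in limma-voom it did not pass (adjusted p = 0.136). *Cyp4a12b*, a fatty acid hydroxylase gene, went from 1.80 ± 2.39 to 43.8 ± 19.9 CPM. *Adgrf1*, an adhesion G protein-coupled receptor gene, went from 0.504 ± 0.418 to 6.44 ± 3.24 CPM. *Serpina1e*, *Mup19* and *Cyp4a12b* have close paralogs with which they may share reads, and the handling of reads that fit several genes is not given in the sources used here.

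Among the genes that fell with the smallest p-values, *Ccng1* and *Eda2r* are known p53 targets, *Anxa2* encodes a membrane-binding annexin, and *Actg1* and *Parva* encode cytoskeletal gamma-actin and the focal adhesion protein alpha-parvin. *Ccng1* fell from 82.3, 78.7, 82.2, 76.3 and 77.2 CPM in Sham HFD to 36.3, 34.7, 35.2, 45.3 and 37.0 CPM in RYGB Chow (log2 fold change -1.07 ± 0.07, edgeR adjusted p = 7.22e-09). *Anxa2* had 41.2, 62.9, 65.9, 45.4 and 57.6 CPM in Sham HFD and 9.10, 9.05, 8.24, 11.8 and 8.26 CPM in RYGB Chow (log2 fold change -2.55 ± 0.20, adjusted p = 5.52e-08). Both genes were lower in every RYGB Chow mouse than in any Sham HFD mouse, which was a condition for naming them. *Actg1* fell from 160 ± 11.9 to 61.1 ± 5.75 CPM, *Parva* from 129 ± 8.83 to 82.7 ± 4.78 CPM and *Eda2r* from 5.51 ± 1.22 to 0.764 ± 0.275 CPM. *Lamb3*, a laminin chain gene, fell from 28.1 ± 3.44 to 6.87 ± 1.68 CPM, and *Samd9l*, an interferon-inducible gene, from 44.1 ± 2.79 to 16.3 ± 3.90 CPM. *Dglucy*, which encodes a mitochondrial D-glutamate cyclase, fell from 81.6 ± 5.10 to 34.1 ± 3.44 CPM, and *Sema5b*, a semaphorin gene, from 26.1 ± 3.30 to 3.66 ± 1.13 CPM.

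The largest decreases included *Themis*, known from T cell development, which had 32.6, 24.8, 21.5, 28.0 and 21.5 CPM in Sham HFD and at most 1.19 CPM in RYGB Chow (log2 fold change -5.51 ± 0.67, edgeR adjusted p = 1.41e-05). Of the 7 T, B and NK cell markers, 1 was expressed enough to be tested and it did not pass. The summed CPM of these markers was between 6.53 and 7.77 in Sham HFD and 4.68, 2.80, 2.91, 4.40 and 14.2 in RYGB Chow. RYGB Chow replicate 5 was thus above all Sham HFD mice and the others of its group were below all of them. *Ntrk2*, the gene of a neurotrophin receptor, fell from 24.4 ± 3.43 to 2.01 ± 0.698 CPM. *Apoa4*, an apolipoprotein gene, fell from 874 ± 341 to 86.1 ± 79.7 CPM, with RYGB Chow replicate 3 at 225 and the other 4 mice at or below 75.1.

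Genes of the Cyp2 and Cyp3 families, with their regulators and reductase partner, moved in both directions. Of 38 tested members of this list, 19 (50%) were called higher and 8 (21.1%) lower, beside 11.4% and 10.7% of all genes, and the median log2 fold change was 0.48. Besides *Cyp3a11*, *Cyp2c23*, an arachidonic acid epoxygenase gene, rose from 169 ± 42.6 to 377 ± 53.7 CPM, and the largest rise in the list was that of *Cyp2c69* (log2 fold change 4.51). *Cyp1a2* (1.73), *Cyp2c29* (1.60), *Por*, the electron donor of these enzymes (0.97), and *Nr1i2*, which encodes the xenobiotic receptor PXR (0.47), also rose, with log2 fold changes in parentheses. *Cyp2b9*, known as higher in female than in male mouse liver, had between 80.6 and 395 CPM in Sham HFD and between 1.76 and 26.3 CPM in RYGB Chow (log2 fold change -4.57 ± 0.70, adjusted p = 0.000137). *Cyp2b13*, of the same subfamily and also known as higher in females, had 2.49, 7.21, 10.1, 7.61 and 10.5 CPM in Sham HFD and at most 3 counts in any RYGB Chow mouse. Set against a floor of 3 counts per mouse, it was at least 47.0-fold lower in RYGB Chow. *Cyp2a4* (-2.40) and *Cyp2a22* (-2.58) fell as well. *Cyp2b10*, known as a target of the constitutive androstane receptor, had between 0.870 and 2.41 CPM in Sham HFD and between 0.0549 and 4.08 CPM in RYGB Chow, and the difference did not pass (log2 fold change 0.16 ± 0.53, adjusted p = 0.857). Its direction turned in 4 of the alternatives. These families hold close paralogs that may share reads.

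**Figure D3:**
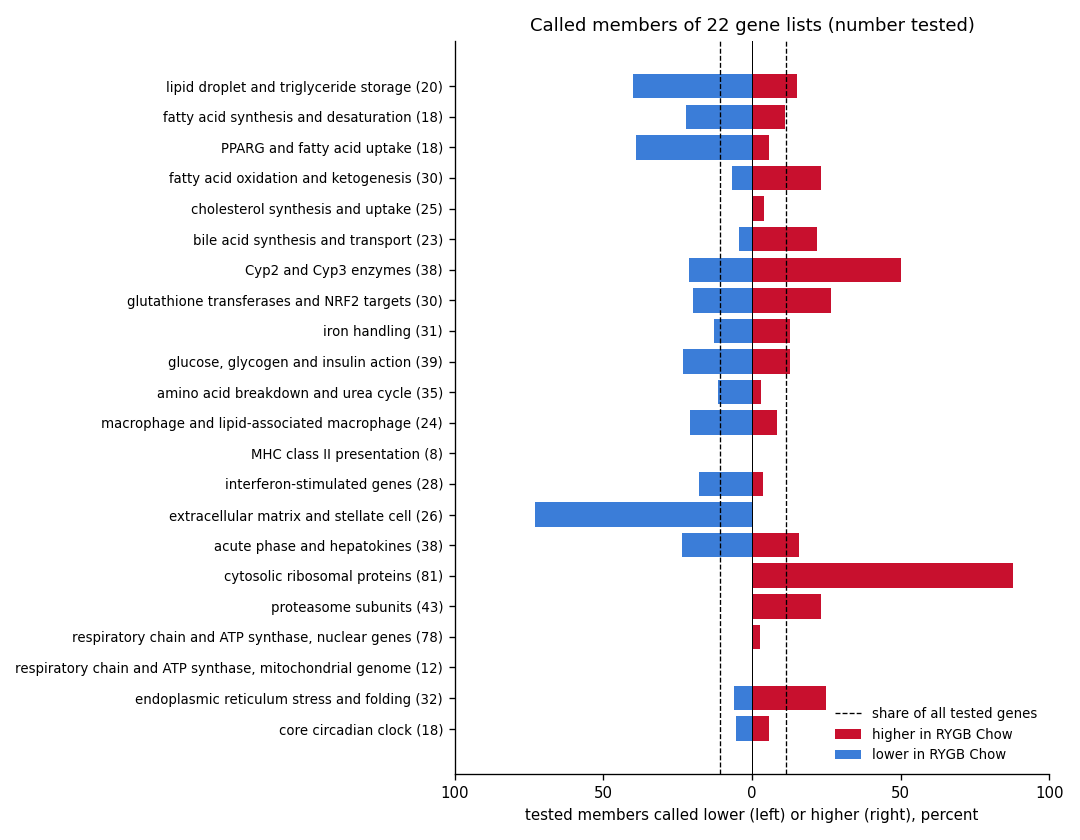
Share of the tested members of 22 gene lists that were called higher (red, to the right) or lower (blue, to the left) in RYGB Chow than in Sham HFD, with the number tested in parentheses and dashed lines at the shares of all tested genes (11.4% and 10.7%). The ribosomal list reaches 87.7% higher, the matrix list 73.1% lower and the Cyp2 and Cyp3 list 50% higher with 21.1% lower.

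More lipid storage genes were called lower than higher. Of 20 tested lipid droplet and triglyceride storage genes, 8 (40.0%) were called lower and 3 (15%) higher, beside 10.7% and 11.4% of all genes. The median log2 fold change was -0.19. *Mogat1*, which encodes a monoacylglycerol acyltransferase, had 7.07, 6.66, 10.6, 7.55 and 10.2 CPM in Sham HFD and 0.654, 0, 0.220, 0.293 and 0.396 CPM in RYGB Chow (log2 fold change -4.73 ± 0.63, adjusted p = 3.27e-05). It was at or near 0 in all RYGB Chow mice. *Cidec*, whose product fuses lipid droplets, fell from 71.2 ± 32.6 to 16.2 ± 7.31 CPM. *Cidea*, of the same family, had between 3.35 and 36.5 CPM in Sham HFD and between 0 and 7.46 CPM in RYGB Chow, so that the groups overlapped (log2 fold change -3.33 ± 1.01, adjusted p = 0.0218). Without Sham HFD replicate 3 or RYGB Chow replicate 4 its adjusted p was 0.0558 and 0.0501, and without RYGB Chow replicate 1 its log2 fold change was -5.03. *Pnpla2*, the gene of the adipose triglyceride lipase, which breaks triglyceride down, rose from 90.6 ± 5.92 to 153 ± 26.4 CPM, and the droplet protein gene *Plin5* (log2 fold change 0.86) and the phosphatidate phosphatase gene *Lpin2* (0.52) were the other members called higher. *Plin4* fell by 1.25 on the log2 scale. The number called lower dropped to 4 without RYGB Chow replicate 2 or 4, and to 5 without Sham HFD replicate 2, 3 or 4 or RYGB Chow replicate 3.

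Of 18 tested genes of the PPARG and fatty acid uptake list, 7 (38.9%) were called lower and 1 (5.56%) higher. These shares stand beside 10.7% and 11.4% of all genes, and the median log2 fold change was -0.27. *Pparg*, which encodes a nuclear receptor that drives lipid storage, had 22.6, 20.4, 23.6, 19.8 and 24.3 CPM in Sham HFD and 13.6, 13.6, 13.4, 14.4 and 14.1 CPM in RYGB Chow (log2 fold change -0.68 ± 0.15, adjusted p = 0.00255). *Cd36*, a fatty acid translocase gene, had 263, 287, 308, 318 and 325 CPM in Sham HFD and 182, 75.9, 141, 110 and 112 CPM in RYGB Chow (-1.27 ± 0.23, adjusted p = 0.000615). In both genes all RYGB Chow mice lay below all Sham HFD mice. *Cfd*, the adipsin gene (log2 fold change -3.58), *Vldlr*, a lipoprotein receptor gene (-1.17), and *Fabp2*, a fatty acid binding protein gene, also fell, the last from 164 ± 6.03 to 64.6 ± 13.4 CPM. *Fabp5*, another fatty acid binding protein gene, rose from 3.45 ± 0.744 to 14.96 ± 5.46 CPM. Adipocyte markers summed to between 0 and 3.77 CPM in Sham HFD and between 0 and 0.272 CPM in RYGB Chow, and none of the 4 was expressed enough to be tested.

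For fatty acid synthesis and desaturation, 4 of 18 tested genes (22.2%) were called lower and 2 (11.1%) higher. The higher share was near the 11.4% of all genes, of which 10.7% were lower, and the median log2 fold change was -0.12. *Elovl5*, an elongase of polyunsaturated fatty acids, fell from 1268 ± 219 to 657 ± 127 CPM, and the desaturase genes *Fads1* and *Fads2* fell by 0.44 and 0.53 on the log2 scale. The lipogenic regulator *Srebf1* fell by 0.91 on the log2 scale, while *Mlxipl*, which encodes the carbohydrate response factor ChREBP, rose from 256 ± 17.4 to 378 ± 44.3 CPM. *Elovl3*, an elongase of very long chains, rose from 71.1 ± 12.6 to 309 ± 85.7 CPM. *Scd1*, the main hepatic stearoyl-CoA desaturase, ranged from 8189 to 16390 CPM in Sham HFD and from 4675 to 17960 in RYGB Chow, and the groups were not told apart (log2 fold change -0.42 ± 0.37, adjusted p = 0.449).

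In fatty acid oxidation and ketogenesis, 7 of 30 tested genes (23.3%) were called higher and 2 (6.67%) lower, beside 11.4% and 10.7% of all genes. The median log2 fold change was 0.07. *Cyp4a31*, of the fatty acid omega-hydroxylase family, rose from 6.83 ± 0.890 to 35.1 ± 12.6 CPM, and *Acot1*, an acyl-CoA thioesterase gene, from 41.2 ± 6.83 to 179 ± 49.2 CPM. *Cyp4a10* (log2 fold change 1.24), *Cyp4a14* (1.33) and *Ehhadh*, of peroxisomal beta-oxidation (0.62), rose as well. *Hadh*, a mitochondrial beta-oxidation enzyme gene, fell from 485 ± 30.4 to 297 ± 26.3 CPM, and *Bdh1*, of ketone body synthesis, by 0.51 on the log2 scale.

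Of 25 tested genes of cholesterol synthesis and uptake, 1 (4.00%) was called higher and 0 lower, beside 11.4% and 10.7% of all genes. The median log2 fold change was -0.0037. The gene called was *Tm7sf2*, which encodes a sterol reductase (log2 fold change 0.76 ± 0.22, adjusted p = 0.0175), with RYGB Chow replicate 3 at 49.8 CPM and the other 4 mice of its group between 131 and 162 CPM. Between 0 and 4 members were called higher over the alternatives. The core of the sterol regulatory element, CACCCCA on either strand, was found in the RefSeq promoter windows (GRCm38.p6, 250 bases before to 50 after the start) of 3 of 17 list members that have one (17.6%), and in 8.66% of all genes with a window.

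Bile acid synthesis and transport genes were called higher in 5 of 23 cases (21.7%) and lower in 1 (4.35%), beside 11.4% and 10.7% of all genes. The median log2 fold change was 0.18. *Cyp27a1* and *Cyp7b1*, enzymes of the alternative pathway of bile acid synthesis, rose from 382 ± 25.8 to 593 ± 94.1 CPM and from 75.8 ± 24.0 to 226 ± 80.2 CPM. *Slco1a1*, an organic anion uptake transporter gene, had 234, 33.1, 49.4, 25.5 and 10.4 CPM in Sham HFD and between 464 and 720 CPM in RYGB Chow (log2 fold change 2.99 ± 0.53, adjusted p = 0.000465). Sham HFD replicate 1 was far above its group in this gene too. *Akr1d1*, a steroid reductase gene, fell by 0.70 on the log2 scale, and between 0 and 3 members were called lower over the alternatives. *Cyp7a1*, the rate-limiting enzyme of the classical pathway, went from 163 ± 70.0 to 108 ± 24.3 CPM and did not pass (adjusted p = 0.349).

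Glutathione transferases and NRF2 targets split in both directions. Of 30 tested members, 8 (26.7%) were called higher and 6 (20%) lower, beside 11.4% and 10.7% of all genes, and the median log2 fold change was 0.02. *Gstp1*, a glutathione transferase gene, had 421, 302, 312, 272 and 251.9 CPM in Sham HFD and 580, 1083, 1011, 983 and 973 CPM in RYGB Chow, where replicate 1 was the lowest and still above all Sham HFD mice. *Gsto1* rose from 76.7 ± 3.80 to 103 ± 15.9 CPM. *Gstk1* fell from 156 ± 8.93 to 100 ± 20.2 CPM, and the NRF2 gene *Nfe2l2* and its target *Nqo1* fell by 0.50 and 0.73 on the log2 scale. The number called higher was 5 without RYGB Chow replicate 5.

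Cytosolic ribosomal proteins formed the most uniform list. Of 81 tested members, 71 (87.7%) were called higher and 0 lower, 80 had a positive log2 fold change, and the median was 0.58. For 68 of them all RYGB Chow mice lay above all Sham HFD mice, beside 7.7% of all tested genes. Under the other normalizations, tools and filters the median of the list lay between 0.51 with library size only and 0.60 with the replicate block. The summed CPM of the list was 8117, 9392, 8630, 8916 and 9410 in Sham HFD and 12050, 13080, 13030, 13450 and 14520 in RYGB Chow, with no overlap. It ranged from 11050 to 14950 in Sham Chow and from 9782 to 12560 in RYGB HFD. *Rpl12*, a large subunit protein, rose from 81.0 ± 7.02 to 166 ± 16.7 CPM (log2 fold change 1.04 ± 0.11, adjusted p = 2.34e-06), and the small subunit gene *Rpsa* rose by a log2 fold change of 0.75 ± 0.08. Processed pseudogenes of ribosomal proteins may share reads with them.

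Ribosomal protein genes are known for a start of transcription within a stretch of pyrimidines, and the starts of 2 of the named genes, from RefSeq on GRCm38.p6, are shown because this list moved together. Each line runs from 30 bases before to 50 bases after the annotated start on the gene's strand, and capitals mark CTTTC or CTTTT. *Rpl12* lies at chr2:32961682-32961761 on the plus strand and *Rpsa* at chr9:120127736-120127815 on the plus strand.
Rpl12: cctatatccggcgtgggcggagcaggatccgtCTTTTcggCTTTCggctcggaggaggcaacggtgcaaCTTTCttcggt
Rpsa: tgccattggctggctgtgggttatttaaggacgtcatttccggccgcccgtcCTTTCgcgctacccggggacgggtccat
Of the 81 tested members, 59 had a window in the RefSeq table. CTTTC or CTTTT on the gene's strand stood within 50 bases of the start in 40 of these (67.8%) and in 24.4% of all 27025 genes with a window. A narrower search, made first, for CTTTC from 10 bases before to 15 after the start found 15 of the 59 (25.4%) and 3.68% of all genes. Both searches were chosen after the values of the list were seen.

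Proteasome subunits rose in 10 of 43 tested cases (23.3%) and 0 were called lower, beside 11.4% and 10.7% of all genes. The median log2 fold change was 0.15. *Psmd9*, an assembly chaperone of the proteasome, rose from 33.2 ± 3.80 to 49.1 ± 4.00 CPM and *Psmb4*, a core subunit, from 105 ± 6.87 to 134 ± 17.9 CPM. *Psme1*, an activator subunit, rose with RYGB Chow replicate 5 at 129 CPM and the other 4 mice between 69.2 and 80.2 CPM. Its log2 fold change was 0.52, and 0.32 without that mouse. The count fell to 3 with library size only, to 4 without RYGB Chow replicate 5, to 5 with a model of the 10 mice and to 6 without Sham HFD replicate 1.

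Of 78 tested nuclear genes of the respiratory chain and ATP synthase 2 (2.56%) were called higher, *Cox7a2l* and *Ndufs7*, each by a log2 fold change of 0.28, and 0 lower. Both shares were below the 11.4% and 10.7% of all genes. The median of the list was 0.04. With library size only 0 were called higher and 3 lower. Without single mice the number higher ran from 0 (Sham HFD replicate 4 or RYGB Chow replicate 5) to 5 (RYGB Chow replicate 3). It was 1 without Sham HFD replicate 1 or 3 or RYGB Chow replicate 1, 2 or 4. Of 12 tested genes of the mitochondrial genome 0 were called in either direction by edgeR, with a median of -0.05. *mt-Nd3* had the smallest p of these (log2 fold change 0.54 ± 0.25, adjusted p = 0.132), and without RYGB Chow replicate 3 it passed (0.70, adjusted p = 0.0382).

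**Figure D4:**
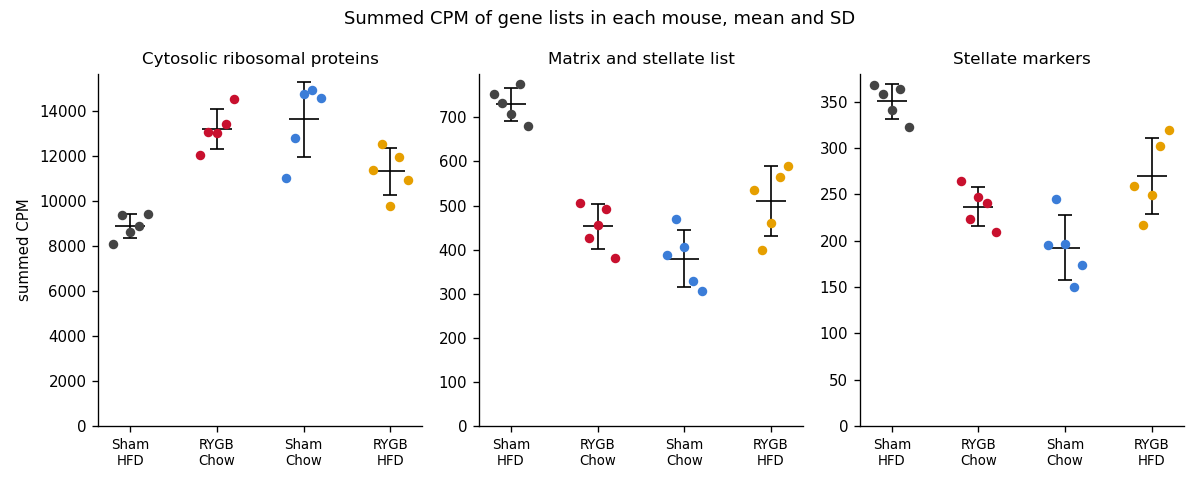
Summed CPM of the ribosomal protein list, the matrix and stellate cell list and the 6 stellate cell markers in each of the 20 mice by group, with mean and SD as black lines and axes from 0. RYGB Chow mice (red) lay above all Sham HFD mice (grey) in the first panel and below all of them in the others. *Col1a1* and *Col3a1* are in both the matrix list and the stellate markers.

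Collagens and other matrix genes fell as a list. Of 26 tested members of the extracellular matrix and stellate cell list, 19 (73.1%) were called lower and 0 higher, 25 had a negative log2 fold change, and the median was -0.79. All RYGB Chow mice lay below all Sham HFD mice for 18 of them, beside 7.89% of all genes. *Col1a1* (chromosome 11 from 94936224 to 94953042), a chain of type I collagen, had 16.1, 22.6, 18.2, 14.9 and 15.9 CPM in Sham HFD and 3.00, 1.56, 3.13, 4.35 and 4.42 CPM in RYGB Chow (log2 fold change -2.41 ± 0.30, adjusted p = 1.89e-05). *Col3a1*, the type III collagen gene, fell from 55.8 ± 8.84 to 14.8 ± 3.05 CPM, and *Col1a2*, the other chain of type I, from 22.1 ± 2.44 to 7.96 ± 1.39 CPM. The matrix protein gene *Thbs1* (-2.15), the intermediate filament genes *Des* (-1.23) and *Vim* (-0.90), the growth factor receptor gene *Pdgfrb* (-0.84) and the cytokine gene *Tgfb1* (-0.57) were also called lower, with log2 fold changes in parentheses. The summed CPM of the list was between 681 and 776 in Sham HFD and between 381 and 506 in RYGB Chow.

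Of the 6 stellate cell markers, 4 were called lower (*Col1a1*, *Col3a1*, *Dcn* and *Colec11*), beside 10.7% of all genes. *Reln* and *Lrat* were not called. *Col1a1* and *Col3a1* are also members of the matrix list, so these results share genes. The 6 markers summed to between 322 and 368 CPM in Sham HFD and between 209 and 264 CPM in RYGB Chow. None of the 6 was at 0. In bulk tissue, fewer cells of a type and less RNA per cell cannot be told apart. *Dcn* and *Colec11* fell by 0.37 and 0.35 on the log2 scale, less than the collagens. The liver label was borne out by the hepatocyte markers, which summed to between 65950 and 78800 CPM in Sham HFD and between 69820 and 116900 CPM in RYGB Chow. Of these, 4 of 6 (*Alb*, *Apoa1*, *Cps1* and *Hnf4a*) were called higher, beside 11.4% of all genes, and *Ttr* and *Tat* were not called. Of the 6 sinusoidal endothelial markers 0 were called, and they summed to between 200 and 326 CPM in Sham HFD and to 94.6 CPM in RYGB Chow replicate 5 and between 204 and 286 CPM in the other 4 RYGB Chow mice. Biliary markers summed to between 6.09 and 8.91 CPM in Sham HFD and between 3.74 and 9.32 CPM in RYGB Chow, and red cell markers to between 250 and 329 CPM and between 99.7 and 371 CPM. Neutrophil markers (at most 4.16 CPM) and pancreatic acinar markers (at most 3.35 CPM) were near 0. Of the intestinal markers, 2 were tested, and *Fabp2* was lower and *Lgals4* higher. The part of other cell types in the differences was not tested.

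Macrophage genes did not move as one. In the list of macrophages and lipid-associated macrophages, 5 of 24 tested members (20.8%) were called lower and 2 (8.33%) higher. Among all genes 10.7% were lower and 11.4% higher, and the median log2 fold change of the list was -0.11. *Cd9*, a tetraspanin gene, rose from 11.8 ± 1.73 to 24.1 ± 5.75 CPM, and *Cd163*, a scavenger receptor for haptoglobin-bound haemoglobin, had 18.5, 10.9, 6.67, 12.5 and 17.5 CPM in Sham HFD and 42.7, 23.1, 38.7, 30.01 and 21.2 CPM in RYGB Chow (log2 fold change 1.24 ± 0.32, adjusted p = 0.00813). *Ccr2*, the chemokine receptor of recruited monocytes, fell from 4.72 ± 1.84 to 1.83 ± 0.716 CPM, and *Itgax* (log2 fold change -1.39), *Cx3cr1* (-1.37), *Mmp12* (-1.40) and *Spp1* (-0.60) fell too. *Trem2* and *Gpnmb*, markers of lipid-associated macrophages, went from 1.94 ± 0.630 to 0.890 ± 0.445 CPM (adjusted p = 0.0823) and from 2.98 ± 0.224 to 1.95 ± 1.42 CPM (adjusted p = 0.529). With a limit of 5 CPM in at least 3 mice only 1 member was called lower, since low genes leave the test, 2 were without Sham HFD replicate 2 or RYGB Chow replicate 2, and 3 without Sham HFD replicate 5. Kupffer cell markers, of which 0 of 6 were called, summed to between 215 and 299 CPM in Sham HFD and between 189 and 464 CPM in RYGB Chow.

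Of 28 tested interferon-stimulated genes, 5 (17.9%) were called lower and 1 (3.57%) higher, beside 10.7% and 11.4% of all genes. The median log2 fold change was -0.31. *Rsad2*, which encodes the antiviral protein viperin, fell from 16.5 ± 3.23 to 6.83 ± 0.652 CPM. *Ifit1* and *Ifit3*, whose products bind viral RNA or partner with the protein that does, fell from 18.1 ± 3.36 to 6.80 ± 3.64 CPM and from 18.2 ± 2.98 to 8.81 ± 3.66 CPM. In *Ifit1*, RYGB Chow replicate 5 stood at 13.2 CPM and the other 4 mice between 4.41 and 6.21 CPM, and without that mouse 12 members of the list were called lower. Of 8 tested genes of MHC class II presentation, 0 were called in either direction by edgeR, with a median of 0.26. *H2-Aa*, a class II chain gene, had 79.8 CPM in RYGB Chow replicate 5 and between 19.3 and 31.6 CPM in the other 4, beside 21.1 to 35.6 CPM in Sham HFD. Its log2 fold change turned from 0.42 to -0.08 without that mouse.

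In the acute phase and hepatokine list, 9 of 38 tested genes (23.7%) were called lower and 6 (15.8%) higher. Among all genes 10.7% were lower and 11.4% higher, and the median log2 fold change of the list was 0.22. The acute phase genes *Orm3* (-2.62), *Lcn2* (-1.95), *Saa2* (-1.38) and *Orm2* (-1.12) fell by these log2 fold changes, as did *Lect2* (-0.76). *Ahsg*, which encodes fetuin-A, rose from 3895 ± 226 to 5698 ± 636 CPM, and *Inhba*, which encodes the activin beta-A chain, from 4.74 ± 0.857 to 13.4 ± 3.48 CPM. Without RYGB Chow replicate 3, 10 members were called higher. *Fgf21*, a fasting and stress hormone gene, was at 74.2 CPM in RYGB Chow replicate 3 and between 2.96 and 7.58 CPM in the other 4 mice, beside 3.02 to 11.7 CPM in Sham HFD. It did not pass (log2 fold change 1.34, adjusted p = 0.254), and without that mouse its log2 fold change was -0.50.

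The same mouse was the highest for *Asns*, which encodes asparagine synthetase and is a target of ATF4, with 30.4 CPM against 1.67 to 3.65 CPM in the other 4 RYGB Chow mice and at most 1.33 CPM in Sham HFD. *Asns* passed with it (log2 fold change 4.11 ± 0.97, edgeR adjusted p = 0.00473) and without it (2.48, adjusted p = 0.0313). In the list of endoplasmic reticulum stress and folding genes, 8 of 32 tested members (25.0%) were called higher and 2 (6.25%) lower. Among all genes 11.4% were higher and 10.7% lower, and the median log2 fold change of the list was -0.01. *Ern1*, the stress sensor IRE1, rose from 60.1 ± 4.44 to 94.0 ± 15.9 CPM and its target *Xbp1* from 177 ± 21.2 to 260 ± 65.0 CPM, while *Derl3* fell by 2.43 on the log2 scale.

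Glucose, glycogen and insulin action genes were called lower in 9 of 39 cases (23.1%) and higher in 5 (12.8%). The higher share was near the 11.4% of all genes, of which 10.7% were lower, and the median log2 fold change was -0.08. The gluconeogenic enzyme genes did not move together. *Pcx* fell from 849 ± 41.3 to 564 ± 40.1 CPM and *Fbp1* by 0.45 on the log2 scale, while *Pck1* (log2 fold change 1.32) and *G6pc* (0.75) rose. The hexokinase gene *Hk2* fell by 2.00 on the log2 scale. *Igfbp1* (1.34) rose beside *Igfbp2*, and *Igfbp5* (-2.46) fell.

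Of 35 tested genes of amino acid breakdown and the urea cycle, 4 (11.4%) were called lower and 1 (2.86%) higher, beside 10.7% and 11.4% of all genes, with a median log2 fold change of 0.06. The number called lower was 2 without Sham HFD replicate 4 or RYGB Chow replicate 4. *Cps1*, the entry enzyme of the urea cycle, had 2153, 1822, 1920, 1833 and 1985 CPM in Sham HFD and 4375, 4490, 2191, 2730 and 3536 CPM in RYGB Chow, so that the lowest RYGB Chow mouse, replicate 3, was just above the highest Sham HFD mouse. Without replicate 3, 5 members were called higher. *Glul*, which encodes glutamine synthetase of the hepatocytes around the central vein, fell from 1388 ± 150 to 962 ± 94.4 CPM. Of 18 tested core clock genes 1 was called higher (*Cry1*, log2 fold change 0.62, adjusted p = 0.0432) and 1 lower. Each was 5.56%, below the 11.4% and 10.7% of all genes, and the median was 0.08. The call of *Cry1* was lost without any 1 of 6 of the 10 mice compared. The E-box CACGTG, which reads the same on both strands and is bound by clock factors, was found in the promoter windows of 5 of 15 clock genes that have one (33.3%) and of 8.09% of all genes.

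Of 31 tested members of the iron list, 4 (12.9%) were called lower and 4 (12.9%) higher, near the 10.7% and 11.4% of all genes, with a median log2 fold change of -0.19. *Hamp* (chromosome 7 from 30942368 to 30944032) encodes hepcidin, and *Hamp2* (chromosome 7 from 30922372 to 30924681) is its neighbouring copy. *Hamp* had 403, 437, 298, 231 and 265 CPM in Sham HFD and 3.05, 4.90, 447, 1.07 and 10.8 CPM in RYGB Chow. Replicate 3 was thus above all Sham HFD mice and the other 4 RYGB Chow mice were far below all of them. With all mice the difference did not pass in edgeR (log2 fold change -1.81 ± 0.97, adjusted p = 0.191, exact permutation p = 0.0476), without replicate 3 it did (-6.06, adjusted p = 4.37e-08), and so it did in limma-voom (-5.12, adjusted p = 0.000151). *Hamp2* had 12.3, 21.3, 34.5, 37.1 and 54.3 CPM in Sham HFD and 4.58, 1.51, 0.494, 0.587 and 4.08 CPM in RYGB Chow, with no overlap (log2 fold change -3.84 ± 0.55, adjusted p = 0.000151). RYGB Chow replicate 3, the highest of its group for *Hamp*, had the lowest *Hamp2*.

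The starts of *Hamp* and *Hamp2* are shown because these genes are near copies whose reads could be mixed up. Each line runs from 50 bases before to 30 bases after the RefSeq start on the minus strand of GRCm38.p6, and capitals mark the transcribed bases. *Hamp* is at chr7:30944000-30944079 and *Hamp2* at chr7:30924152-30924231.
Hamp: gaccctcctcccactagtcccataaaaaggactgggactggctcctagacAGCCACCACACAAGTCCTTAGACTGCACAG
Hamp2: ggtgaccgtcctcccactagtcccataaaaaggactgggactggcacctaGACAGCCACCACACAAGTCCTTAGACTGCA
Their most alike transcripts were identical at 388 of 417 aligned positions (93.0%), so that a value of either gene may hold reads of the other. In RYGB Chow replicate 3, *Hamp* had 8140 counts and *Hamp2* 9, so that at most 9 reads of *Hamp* were counted as *Hamp2* there. The mixing of reads was not tested.

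*Tfrc* (chromosome 16 from 32608920 to 32632794), which encodes the transferrin receptor and whose messenger RNA is known to be stabilized when cells are low in iron, had 13.7, 13.8, 14.0, 15.5 and 16.4 CPM in Sham HFD and 51.7, 46.6, 39.2, 48.4 and 20.7 CPM in RYGB Chow (log2 fold change 1.495 ± 0.32, adjusted p = 0.00214). Replicate 5 was the lowest RYGB Chow mouse and still above all Sham HFD mice. *Steap2*, a metalloreductase gene, rose from 6.25 ± 1.29 to 12.6 ± 3.44 CPM, and the iron importer gene *Slc11a2* (log2 fold change 0.49) and *Tfr2* (0.31) rose as well. *Fth1*, the ferritin heavy chain gene, *Hfe* and *Steap4* fell by 0.27, 0.31 and 0.53 on the log2 scale. The number of iron genes called lower was 8 without RYGB Chow replicate 3 and 8 with library size only.

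The other groups place these values. *Tfrc* was at 15.2 ± 3.60 CPM in Sham Chow and at 72.0 ± 34.1 CPM in RYGB HFD, and its log2 fold change over Sham HFD was 0.05 in Sham Chow (adjusted p = 0.926) and 2.30 in RYGB HFD (adjusted p = 6.29e-05). *Hamp* was at 830 ± 197 CPM in Sham Chow and at most 0.521 CPM in RYGB HFD. *Hamp2* was at 11.1 ± 5.72 CPM in Sham Chow and at 0 in all 5 RYGB HFD mice. By the direct test of RYGB Chow against Sham Chow, *Tfrc* differed by 1.44 ± 0.32 on the log2 scale and did not pass (adjusted p = 0.0970). Nor did *Hamp2* (-2.30, adjusted p = 0.148) or *Hamp* (-3.15, adjusted p = 0.268). The exact permutation p of all of them was 0.00794, the smallest that the splits of 5 against 5 mice can give. It is not adjusted over the tested genes and says only that the groups did not overlap. The share of all genes without overlap between these groups is not given here.

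**Figure D5:**
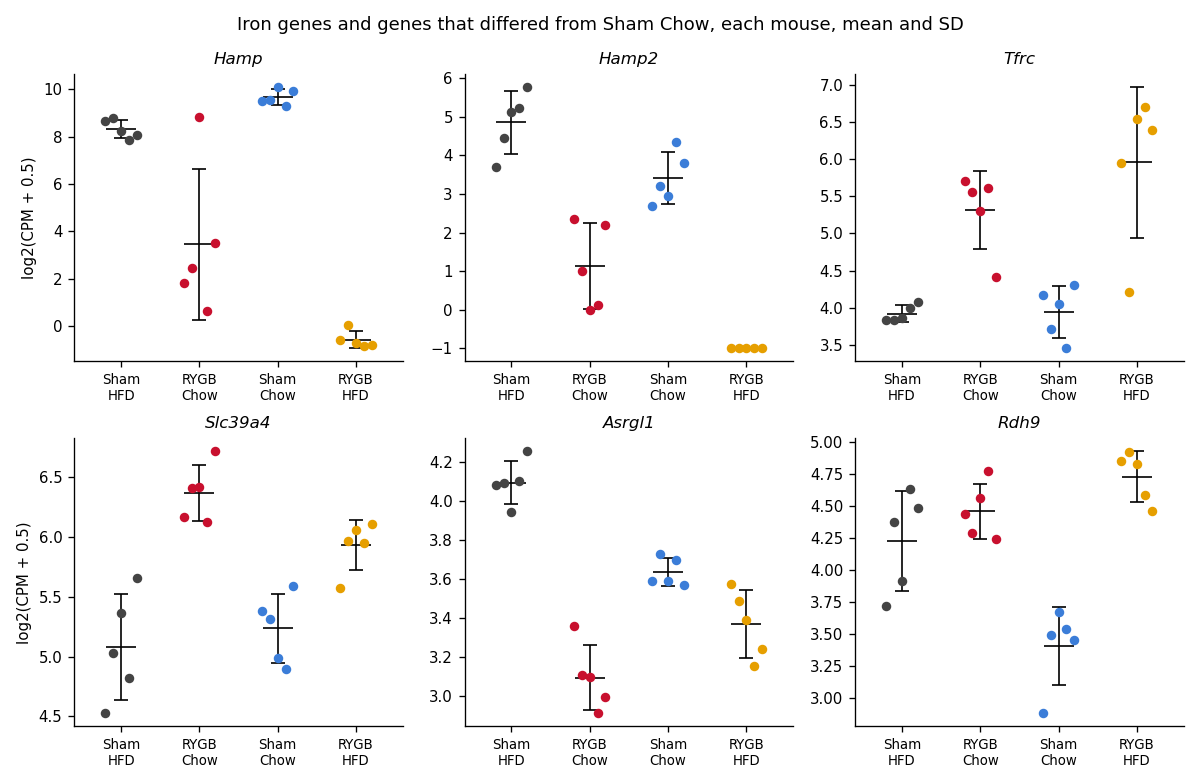
log2(CPM + 0.5) of *Hamp*, *Hamp2*, *Tfrc*, *Slc39a4*, *Asrgl1* and *Rdh9* in each of the 20 mice by group, with mean and SD as black lines. RYGB Chow replicate 3 stands at the Sham HFD level in *Hamp*, and *Slc39a4* is higher and *Asrgl1* lower in RYGB Chow than in both sham groups.

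The test of RYGB Chow against Sham Chow shows which differences from Sham HFD went beyond those of sham surgery with the same return to chow. It called 6 genes higher (0.0488% of those tested) and 1 lower (0.00814%) by edgeR. At an unadjusted p under 0.05 there were 700 and 625, and DESeq2 called 66 and 26. Of these 7 genes, *Slc39a4* and *Asrgl1* had also been called against Sham HFD, and in the same direction.

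*Slc39a4* (chromosome 15 from 76612383 to 76617384) encodes the zinc importer ZIP4, which takes up dietary zinc in the gut. It had 22.6, 32.2, 40.6, 27.7 and 49.9 CPM in Sham HFD, 71.5, 84.4, 85.2, 69.3 and 104 CPM in RYGB Chow and 41.2, 39.4, 31.3, 29.3 and 47.8 CPM in Sham Chow. The RYGB Chow mice lay above all mice of both sham groups. The log2 fold change was 1.26 ± 0.18 over Sham HFD (adjusted p = 6.51e-05) and 1.13 ± 0.18 over Sham Chow (adjusted p = 0.0222), and in RYGB HFD it was 0.82 over Sham HFD. The difference from Sham Chow did not pass in models of the 10 mice compared (adjusted p = 0.0525 and 0.0512) or without Sham Chow replicate 1 (0.0542), 3 (0.109) or 4 (0.111).

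*Asrgl1* (chromosome 19 from 9109868 to 9135636), which encodes an asparaginase, had 16.4, 16.5, 14.9, 16.6 and 18.6 CPM in Sham HFD, 9.75, 8.13, 8.07, 7.04 and 7.47 CPM in RYGB Chow and 11.5, 12.7, 11.6, 12.5 and 11.4 CPM in Sham Chow. Its log2 fold change was -1.04 ± 0.10 over Sham HFD (adjusted p = 1.44e-06) and -0.56 ± 0.10 over Sham Chow (adjusted p = 0.0474). Each RYGB Chow mouse was below every mouse of both sham groups. The difference from Sham Chow passed in 3 of 9 alternatives and without 2 of the 20 mice, with log2 fold changes from -0.64 to -0.51 and adjusted p-values from 0.0011 to 0.334.

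The other 5 genes, *Rdh9*, *Hk3*, *Lhx6*, *Dmpk* and *Nckap1l*, were higher than in Sham Chow and not called against Sham HFD. Their edgeR adjusted p-values against Sham Chow were 0.0222 for *Rdh9*, 0.0450 for *Hk3* and *Lhx6* and 0.0474 for *Dmpk* and *Nckap1l*. *Rdh9* passed in 7 of 9 alternatives and in 16 of the 20 fits without 1 mouse. In the order *Hk3*, *Lhx6*, *Dmpk* and *Nckap1l*, the others passed in 5, 6, 4 and 5 alternatives and in 7, 8, 7 and 4 such fits. None of the 5 passed in the models of the 10 mice compared. *Rdh9*, a retinol dehydrogenase gene, was at 21.6 ± 3.41 CPM in RYGB Chow, at 18.7 ± 4.94 CPM in Sham HFD and at 10.2 ± 2.02 CPM in Sham Chow. *Hk3*, a hexokinase gene of myeloid cells, was at 5.46 ± 2.18, 4.31 ± 0.670 and 1.99 ± 0.728 CPM in the same order. *Dmpk*, a protein kinase gene, was at 27.9 ± 5.99, 24.9 ± 4.34 and 16.0 CPM, *Lhx6*, a homeobox gene, at 8.83 ± 1.76, 9.75 ± 1.49 and 4.24 CPM, and *Nckap1l*, an actin regulator of blood cells, at 8.74 ± 1.69, 9.50 ± 0.618 and 4.31 CPM. In these 5 genes Sham Chow had the lowest mean of the 4 groups. The macrophage list had a median log2 fold change of 0.81 in RYGB Chow over Sham Chow, with 0 of 24 members called by edgeR in either direction. Kupffer cell markers summed to between 189 and 464 CPM in RYGB Chow and between 91.7 and 246 CPM in Sham Chow. Markers of lipid-associated or recruited macrophages summed to between 45.9 and 59.8 CPM and between 32.1 and 49.99 CPM. Among the latter markers, *Cd9* alone had means of 24.1 CPM in RYGB Chow and 17.7 CPM in Sham Chow. The part of macrophages in these 5 genes was not tested.

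The log2 fold changes over Sham HFD in both chow groups are given side by side for some of these genes, and the Sham HFD mice are shared by both. *Cyp3a11* was 2.94 in RYGB Chow and 2.76 in Sham Chow, and *Col1a1* was -2.41 and -1.94. *Igfbp2* was 2.49 and 1.86, and *Mogat1* -4.73 and -2.75. *Serpina1e* was 4.62 and 4.32, *Hsd3b5* 6.78 and 7.07 and *Anxa2* -2.55 and -2.76. In the ribosomal list the median was 0.58 and 0.65, and in the matrix list -0.79 and -0.98. Other lists lay further apart, with medians of -0.11 in RYGB Chow and -0.84 in Sham Chow for the macrophage list, -0.31 and -0.68 for interferon-stimulated genes and -0.0037 and 0.29 for cholesterol synthesis and uptake. RYGB HFD over Sham HFD, by contrast, gave -0.74 for *Cyp3a11*, which fell from 799 ± 196 CPM to a mean of 480 CPM, and 0.36 for *Gstp1*. It gave 2.78 for *Igfbp2*, -2.21 for *Col1a1*, 4.32 for *Serpina1e*, 7.57 for *Hsd3b5* and -2.17 for *Anxa2*. Its medians were 0.36 in the ribosomal and -0.63 in the matrix list. These differences between comparisons were not tested except as RYGB Chow against Sham Chow, where none of *Cyp3a11*, *Col1a1*, *Igfbp2* and *Mogat1* passed (adjusted p from 0.285 to 0.792). For *Mogat1* the groups did not overlap, with 0.832 to 1.86 CPM in Sham Chow. The exact permutation p, not adjusted over the tested genes, was thus the smallest possible, 0.00794.

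The RYGB Chow mice were the more variable group. The median SD of log2(CPM + 0.5) over the tested genes was 0.211 in RYGB Chow and 0.162 in Sham HFD, and 67.2% of genes had the larger SD in RYGB Chow (61.0% without replicate 3). Replicates 3 and 5 of RYGB Chow had the lowest mean correlation with their group (0.971 each), and these 2 mice were the ones that stood apart in *Hamp*, *Asns*, *Fgf21*, *H2-Aa* and *Psme1*. Nothing in the labels sets these mice apart. Without replicate 3, 1262 genes were higher and 1237 lower than in Sham HFD, and without replicate 5, 1321 and 1287.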

How the data were processed

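Liver RNA was poly-A selected and sequenced from a strand-marking library. Per the labels and the study's methods, reads were trimmed with Trimmomatic 0.36, aligned to mm10 (GRCm38) with HISAT2 2.1.0 and counted with featureCounts 1.5.0-p3. The strand setting, the annotation release and the handling of reads that fit several genes are not given in the sources used here. The authors deposited raw counts per Ensembl gene for all 20 mice, without normalization. No 2 columns were identical, and 0 columns of other samples were found. Symbols and positions came from GENCODE M21, with 54495 of 54532 genes matched to a symbol. *Gsta13* was not matched and is not analysed here.

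Genes that reached 2 CPM in 3 or more mice were tested with edgeR 4.0.16 in R 4.3.3 (quasi-likelihood, TMM, two-sided) in one model of the 4 groups, with Benjamini-Hochberg adjustment over 12289 genes. TMM factors of the 20 mice ran from 0.916 to 1.13. The SE of a log2 fold change was derived from edgeR's test, as its absolute value over the square root of the F statistic. CPM values use TMM. Single genes were also compared on log2(CPM + 0.5) by an exact permutation test. The libraries carried no molecular identifiers, and floors of 3 counts cover counting error only. Nothing states that numbered mice share a litter or cage, and p-values measure the spread between mice. The labels name no batch. The tests did not pair mice by replicate number, except in the alternative with a replicate block.

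Of 22 gene lists and 12 marker lists, members were counted and no set test was run. Named genes were the 10 higher and 10 lower with the smallest p and the 5 with the largest change each way (mean of at least 5 CPM) among protein-coding genes whose groups did not overlap, up to 3 of each list, a list of 16 genes, and those called against Sham Chow. Some genes that meet this rule are not reported here. Other members are given as examples of their list, chosen after their values were seen. The comparison, its lists and its rules were chosen with earlier results of these data known. The alternatives were DESeq2 1.42.0, RLE factors, scaling by library size only, limma-voom with limma 3.58.1, a filter of 5 CPM or none, models of the 10 mice compared, a replicate block, a fold of at least 2 and leaving out each of the 20 mice. The procedure was tested on simulated data. Body weight was not analysed here.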

Additional observations from a re-analysis of the deposited data

Results flagged for a closer look

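For each named gene and each group of 5 mice, the gap between the most extreme mouse and the nearest other mouse was divided by the range of the group, and 24 of 193 such groups exceeded the critical value of 0.71. For normally distributed values, chance alone would exceed it in about 1 in 20 groups. The rule was applied to CPM, whose distribution was not tested, and genes of 1 mouse are not independent. The number of groups above it is thus no measure of an excess over chance. The extreme mouse was in RYGB Chow for 15 and in Sham HFD for 9 of them.

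RYGB Chow replicate 3 accounted for 8. It was the highest of its group for *Hamp* (447 CPM, next 10.8), *Fgf21* (74.2, next 7.58), *Asns* (30.4, next 3.65), *Apoa4* (225, next 75.1), *Cyp4a31* (57.0, next 34.0), *Steap2* (18.7, next 11.4) and *Inhba* (19.4, next 12.9), and the lowest for *Tm7sf2* (49.8, next 131). RYGB Chow replicate 5 was the highest for *H2-Aa* (79.8, next 31.6), *Psme1* (129, next 80.2) and *Ifit1* (13.2, next 6.21). RYGB Chow replicate 4 was the highest for *Ccng1* (45.3, next 37.0) and *Anxa2* (11.8, next 9.10), and replicate 1 the highest for *Cidea* (7.46, next 1.17) and the lowest for *Gstp1* (580, next 973).

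In Sham HFD, replicate 1 was the highest for *Serpina1e* (517 CPM, next 133), *Hsd3b5* (4.87, next 0.507), *Slco1a1* (234, next 49.4) and *Cyp7a1* (283, next 160) and the lowest for *Ndufs7* (59.8, next 68.7). Replicate 4 was the highest for *Rsad2* (22.2, next 15.7) and *Psme1* (64.2, next 58.8), replicate 3 the lowest for *Inhba* (3.25, next 4.91) and replicate 5 the highest for *Gpnmb* (3.38, next 2.96).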

How the results depend on the processing

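Against Sham HFD, the number of genes higher in RYGB Chow (1401) moved by over 1.5 times with library size only (766) and with a fold of at least 2 (166), and the number lower (1318) with that fold (274). Over single mice left out the counts ran from 1131 to 1441 and from 1077 to 1361. Against Sham Chow, the 6 higher and 1 lower genes became 66 and 26 with DESeq2, 10 and 3 without the filter, and 0 and 0 in both models of the 10 mice compared. Limma-voom gave 2 higher, a fold of at least 2 gave 0 lower, and leaving out single mice gave 0 to 11 and 0 to 7. The replicate block gave 1333 and 1248 genes over Sham HFD and 7 and 1 over Sham Chow. Pairing by replicate number is not stated in the labels, the deviations of same-numbered RYGB Chow and Sham HFD mice correlated by -0.027 to 0.091, and 1 of 5 mice correlated best with its own number, a hint from the data and not the design.

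The 97 named genes kept direction and call in 855 of 867 values under 9 settings and in 1907 of 1940 without single mice. Many of these genes were named for a small p, a large change or no overlap in the main fit, which favours such agreement. The mice left out include those of Sham Chow and RYGB HFD, which are not in this comparison. The log2 fold change of *Cyp2b10* turned to -0.65 in limma-voom, to -0.066 with the replicate block, and, without Sham HFD replicate 1 or RYGB Chow replicate 5, to -0.01 and -0.22 (range over mice left out -0.22 to 0.47). *Fgf21* turned to -0.50 without RYGB Chow replicate 3 (range -0.50 to 1.61) and *H2-Aa* to -0.08 without RYGB Chow replicate 5 (range -0.08 to 0.58). *Hamp* passed in limma-voom, with the block (-4.57, adjusted p = 0.00904) and without RYGB Chow replicate 3. The cause of these moves was not tested. Depth limits genes near 2 CPM, where 1 group can hold few counts.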
